A study of Mus musculus with 8 samples.

Results

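Voltage-gated sodium and calcium channels were followed in male C57BL/6 mice, in cervical spinal cord according to the labels, on 8 Affymetrix whole-transcript arrays. The members were all genes with a symbol starting with Scn and a digit, or with Cacna1, Cacna2d, Cacnb or Cacng. The platform annotation gave 35 such genes a probe set of their own, out of 19938 genes with one, and 34 of the 35 were bright enough to be tested among 16026 genes. Scn11a was the exception. The muscle isoform Scn4a, and Cacnb3 and Cacng6, were not analysed here. The 4 groups had 2 arrays each. Mice of all groups were 6 weeks old at the start and were injected daily for 4 weeks, the control group with saline alone and the other 3 groups with MPTP, a neurotoxin used to model parkinsonism, at 20 mg/kg. The MPTP group had no needling, the acupoint group was needled by hand at GB34 and LR3 on the leg and foot in 14 sessions, and the non-acupoint group, called the hip group below, was needled at the hips in the same way. Mice are numbered in the labels, which leave unsaid whether each array holds 1 animal or a pool, so p-values measure only the spread between these samples.

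Voltage-gated sodium channels carry the rising phase of the action potential. A large alpha subunit forms the pore and the voltage sensor, and small beta subunits attach to it, alter its gating and act as adhesion molecules. Voltage-gated calcium channels turn depolarisation into calcium entry, which releases transmitter at nerve terminals and couples excitation to contraction in muscle. Their pore is an alpha1 subunit (Cacna1 genes), which is joined by an extracellular alpha2delta subunit, the target of gabapentin in the case of Cacna2d1, and by an intracellular beta subunit. The genes named Cacng encode membrane proteins related to the gamma subunit of the muscle channel, most of which serve AMPA-type glutamate receptors as auxiliary subunits.

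Values are log2 signals after RMA, a method that corrects background, equalises the distribution of signals across arrays and summarises each probe set, so a difference of 1 is a 2-fold change. Differences come from a limma fit to all 8 arrays with 1 mean per group, given with the standard error (SE) of that fit, and a gene was called at a Benjamini-Hochberg adjusted p under 0.05 over all 16026 genes. Signals of different genes were not compared, since probe sets differ in brightness for technical reasons. Precision is limited by how few arrays there are, and 2 against 2 cannot reach an exact permutation p below 0.333. Markers of cord cells were present, with a mean log2 signal of 10.26 to 10.59 for 12 pan-neuronal genes, 7.74 to 8.40 for 10 motor neuron genes and 10.71 to 11.05 for 8 oligodendrocyte genes. The arrays were not alike in other tissue. For 14 skeletal muscle markers the mean was 7.12 on control replicate 1, 8.64 on control replicate 2, 6.62 on acupoint replicate 1 and no higher than 5.56 elsewhere. The mean of 6 Schwann cell and peripheral nerve markers reached 8.13 on control replicate 1 and 8.09 on acupoint replicate 1, with 6.49 to 7.56 elsewhere.

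Between the MPTP group and saline control a minority of the channel genes differed, in both directions. Of the 34 tested, 5 rose (14.7%; Scn1a, Scn2b, Scn4b, Cacna2d1 and Cacng2), where 13.7% of all genes tested were called higher, and 3 fell (8.82%; Cacng7 and the muscle isoforms Cacng1 and Cacna1s), where 3.1% of all genes were called lower. The share called higher was thus near that of all genes. Without the 3 muscle isoforms, 5 of 31 rose (16.1%) and 1 fell (3.23%), both near the shares of all genes, so 2 of the 3 falls were muscle genes. The median log2 difference was -0.02 over the channel genes and 0.06 over all genes, and the differences ran from -1.02 (Cacna1s) to 0.49 (Cacna2d1). With all 6 MPTP arrays set against the 2 control arrays, the same 5 genes rose (14.7%, against 19.9% of all genes) and 5 fell (14.7%, against 5.35%), with Cacna1a and Scn10a added to the 3 above. Without the muscle isoforms 3 of 31 fell (9.68%). The comparisons with control share the same 2 control arrays, so they are not independent of each other. The F-test over the 4 groups called 6 channel genes (17.6%, against 10.8% of all genes), namely Cacng2, Scn2b, Cacng1, Cacng7, Cacna2d1 and Scn4b.

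**Figure D1:**
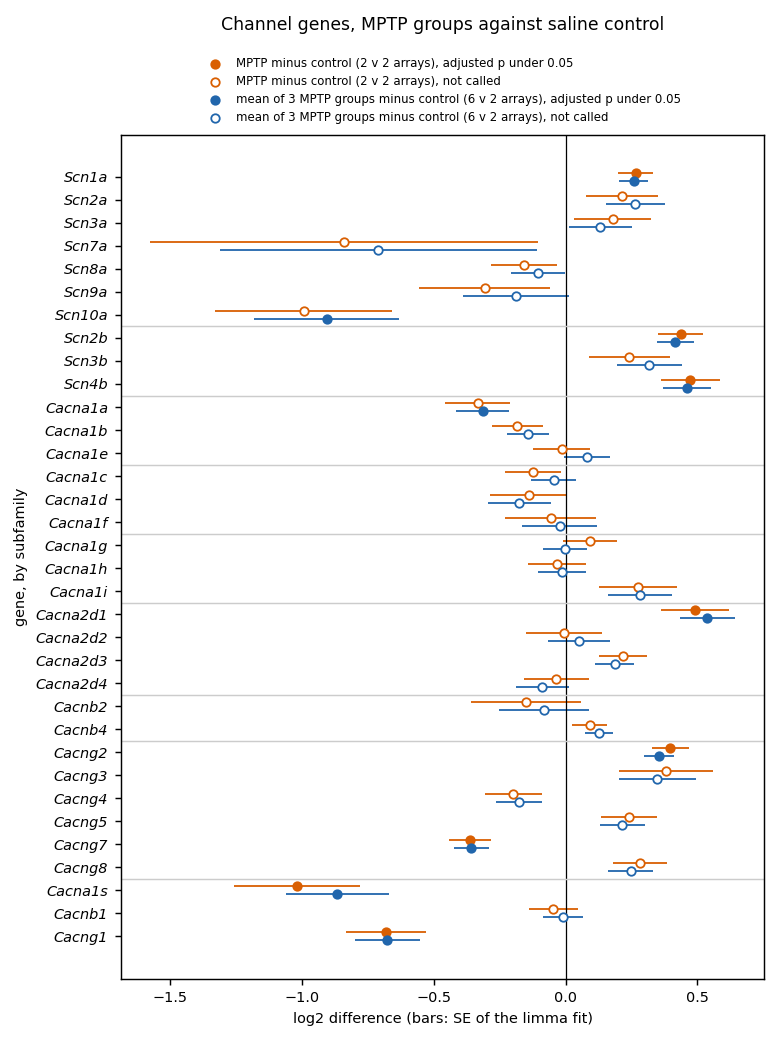
Log2 difference from saline control for the 34 channel genes tested (x axis, log2 units; bars, SE of the limma fit), grouped by subfamily, for the MPTP group alone and for the mean of the 3 MPTP groups. Filled points passed an adjusted p of 0.05. The called genes lie in 5 of the 9 subfamilies in the first comparison, and the widest bars belong to Scn7a and Scn10a.

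These counts depended on single arrays and on scaling. Leaving out MPTP replicate 1 or MPTP replicate 2, which leaves 1 array to stand for the group at the spread of the others, ended all 8 calls of MPTP minus control, while the share of all genes called higher fell from 13.7% to 0.275% and 0.93%. Without control replicate 1, control replicate 2 or either hip array the calls were fewer, among the channel genes and among all genes. Without acupoint replicate 1 or 2 they were more numerous among both. With control replicate 1 and acupoint replicate 1 both left out, a setting chosen after seeing the data, they were 8 higher (23.5%, against 23.3% of all genes) and 5 lower (14.7%, against 6.99%). A further cyclic loess normalization gave 2 higher (5.88%, against 8.35%) and 3 lower (8.82%, against 4.69%). Centring each array on its median gave 9 higher (26.5%, against 25.1%) and 2 lower (5.88%, against 1.36%), while shifting the median gene from 0.06 to 0.22. Counts of channel genes called higher thus moved with those of all genes. The mean of the muscle markers was higher on each control array than on any other array, although Myh1, Mb and Myh2 were lower on control replicate 1 than on acupoint replicate 1, so this mean moved with every contrast against control. All 8 astrocyte markers also rose in MPTP minus control, with a mean of 9.91 and 9.76 in the controls and 10.38 to 10.50 elsewhere, as did 6 of 10 motor neuron markers. The part of these cell types in the changes of non-muscle members was not tested.

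**Figure D2:**
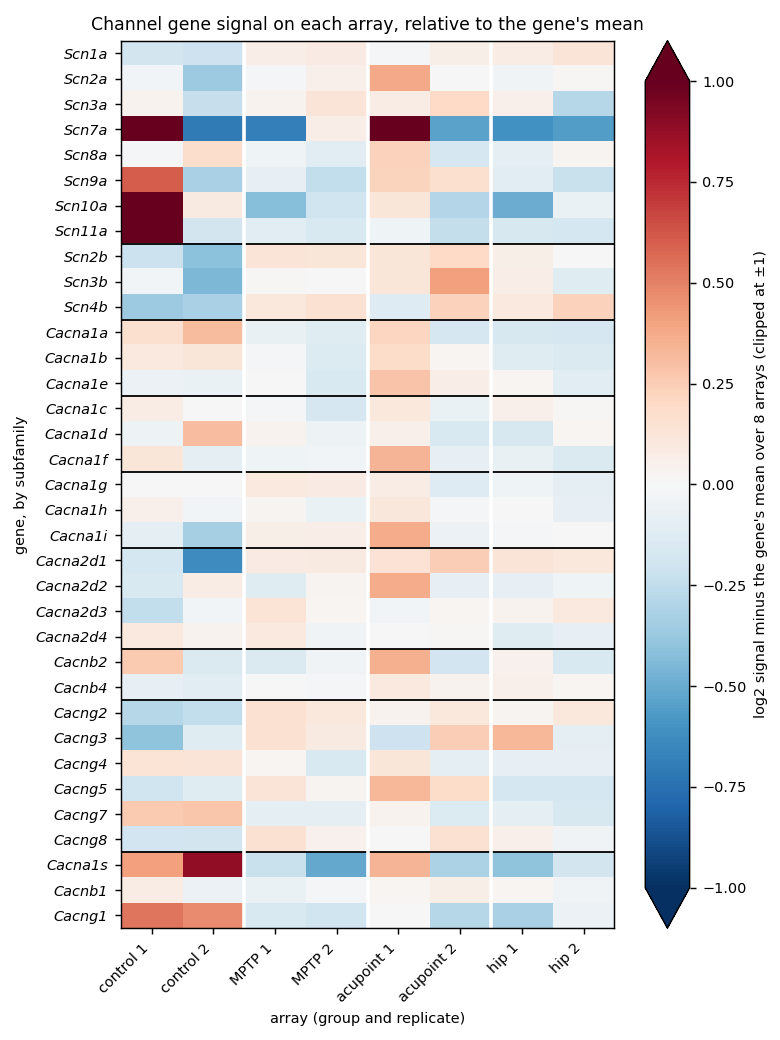
Log2 signal of the 35 channel genes (rows, by subfamily, separated by lines) on the 8 arrays (columns), each relative to the gene's own mean over 8 arrays; red is above and blue below that mean, clipped at 1 log2 unit. Scn7a, Scn10a and Scn11a reach the end of the scale on control replicate 1, and acupoint replicate 1 is the highest array for 12 of the 34 genes tested.

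Among the sodium channel alpha subunits the central forms moved little on the probe sets used. Several other probe sets of Scn2a, described below, differed more. Scn1a encodes Nav1.1, which in the cord and brain is prominent in fast-firing inhibitory neurons and in motor axons. Its signal was 10.34 and 10.32 on the control arrays, 10.59 and 10.61 after MPTP, 10.51 and 10.58 with acupoint needling and 10.60 and 10.66 with hip needling. All 6 MPTP arrays lay above both control arrays, by a narrow margin. Scn1a rose 1.20-fold in MPTP minus control (log2 0.27, SE 0.07, limma adjusted p = 0.0245) and 0.26 in the mean of the 3 MPTP groups (SE 0.05, adjusted p = 0.00808). The MPTP minus control call ended without control replicate 1 (0.28), control replicate 2 (0.26), MPTP replicate 1 (0.27), MPTP replicate 2 (0.26) or either hip array (0.27 each), and after cyclic loess (0.11, adjusted p = 0.264), and the call over all MPTP arrays ended without control replicate 2 (0.25, adjusted p = 0.0662) and after cyclic loess (0.11, adjusted p = 0.144). Quantile normalization (0.17) and a fit with no intensity trend also ended the MPTP call.

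Scn8a encodes Nav1.6, the main channel of nodes of Ranvier and axon initial segments. Its signal was 9.77 and 9.96 on the control arrays and ran from 9.62 to 10.01 on the 6 MPTP arrays, so the groups overlapped, and its difference was -0.16 (SE 0.13, adjusted p = 0.442). Scn3a, a form most abundant before birth, was at 0.18 (SE 0.15, adjusted p = 0.453), with 6.64 and 6.38 in the controls, with 6.32 to 6.81 after MPTP with or without needling. Neither passed the threshold in any of the 7 contrasts.

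Scn2a, which encodes Nav1.2 of axons and initial segments, had 14 probe sets of its own. The brightest of them, used in the test, was at 9.24 and 8.90 on the control arrays, 9.25 and 9.32 after MPTP, 9.65 and 9.27 with acupoint needling and 9.23 and 9.28 with hip needling. It was at 0.21 in MPTP minus control (SE 0.14, adjusted p = 0.327). In a fit over each of 17581 probe sets, chosen after seeing the data, the 14 ran from -0.17 to 0.87 with a median of 0.31. Of these, 5 rose and 13 were positive, and in the mean of the 3 MPTP groups 7 rose. The average of the 14 passed the threshold in both contrasts. The probe sets of Scn2a thus disagreed about the size of the difference, and the one chosen by brightness lay below their median.

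**Figure D3:**
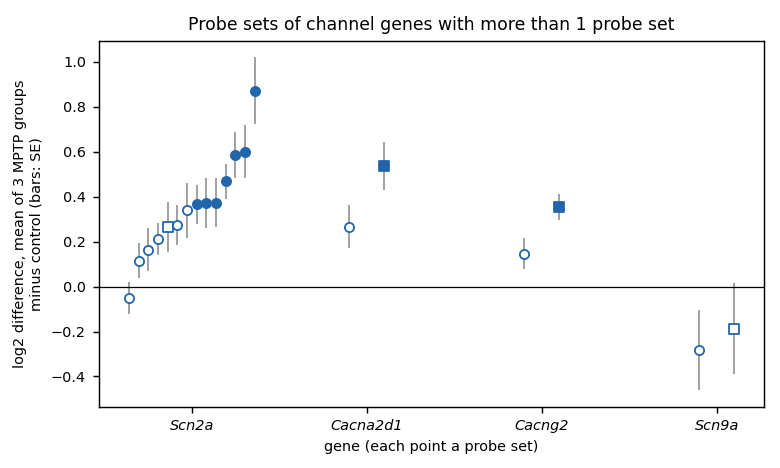
Log2 difference of the mean of the 3 MPTP groups from control (y axis; bars, SE) for each probe set of the 4 channel genes with more than 1. Squares mark the probe set used for the gene and filled symbols passed an adjusted p of 0.05 over all probe sets. For Scn2a 13 of 14 probe sets lie above 0.

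Of the sodium channel beta subunits, 2 of 3 rose. Scn2b and Scn4b each form a disulphide bond with the alpha subunit, and the tail of the Scn4b product can act as an open-channel blocker in resurgent sodium current. Scn2b was at 8.93 and 8.73 on the control arrays, 9.27 on both MPTP arrays, 9.26 and 9.34 with acupoint needling and 9.20 and 9.14 with hip needling. Scn4b was at 9.26 and 9.29 on the control arrays, 9.72 and 9.77 after MPTP, 9.49 and 9.85 with acupoint needling and 9.72 and 9.85 with hip needling. For both genes every MPTP array exceeded both control arrays. Scn2b rose 1.35-fold in MPTP minus control (log2 0.44, SE 0.09, limma adjusted p = 0.0106) and Scn4b 1.39-fold (log2 0.47, SE 0.11, adjusted p = 0.0212).

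Both also rose in acupoint minus control (Scn2b 0.47, adjusted p = 0.0113; Scn4b 0.40, adjusted p = 0.0497) and in hip minus control (0.34, adjusted p = 0.0236, and 0.51, adjusted p = 0.0144). For the mean of the 3 MPTP groups Scn2b was at 0.42 (adjusted p = 0.00324) and stayed called without any single array, while Scn4b was at 0.46 (adjusted p = 0.00667) and lost its call without control replicate 2 (0.48, adjusted p = 0.0568). In MPTP minus control the Scn2b call ended without control replicate 2 (0.34) or either MPTP array (0.44 each), and the Scn4b call without control replicate 1 (0.46), control replicate 2 (0.49), MPTP replicate 1 (0.50) or MPTP replicate 2 (0.45), after cyclic loess (0.32) or with no intensity trend. Scn3b, which binds without a disulphide bond, was at 7.50 and 7.08 in the controls, while the 6 MPTP arrays ran from 7.40 to 7.94, with a difference of 0.24 (SE 0.15, adjusted p = 0.321). The 12 pan-neuronal markers had a median difference of 0.30 in the same contrast, and 7 of them rose, where 13.7% of all genes did. Rbfox3 (-0.12), Tubb3 (0.04) and Map2 (0.08) were among those not called. Markers of astrocytes (8 of 8, median 0.54), microglia (5 of 8, 0.45) and oligodendrocytes (3 of 8, 0.23) rose too, while primary sensory neuron markers did not (0 of 6). The rises of Scn2b and Scn4b thus stood beside rises of markers of several cord cell types, not of neurons alone. In bulk tissue a change in the share of neurons or of other tissue and a change in RNA per neuron cannot be told apart.

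Scn2b and Scn4b are next to each other on chromosome 9, with 0 protein-coding genes between them. Since these neighbours rose together, the 250 bases before the start of each are shown from the RefSeq promoter table (build GRCm38.p6), at chr9:45117626-45117875 for Scn2b and chr9:45138374-45138623 for Scn4b, both on the plus strand. Each was searched on both strands for a GC box (GGGCGG), an E-box (CAGCTG), the MEF2 pattern CTANNNNTAG, a TATA box (TATAAA) and a CRE (TGACGTCA). Capitals mark a match, and overlapping matches were counted separately.
Scn2b: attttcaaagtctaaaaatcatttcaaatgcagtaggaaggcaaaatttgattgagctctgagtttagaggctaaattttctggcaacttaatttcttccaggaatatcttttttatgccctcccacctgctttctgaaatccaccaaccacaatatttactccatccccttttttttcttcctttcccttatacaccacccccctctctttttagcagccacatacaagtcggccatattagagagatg
Scn4b: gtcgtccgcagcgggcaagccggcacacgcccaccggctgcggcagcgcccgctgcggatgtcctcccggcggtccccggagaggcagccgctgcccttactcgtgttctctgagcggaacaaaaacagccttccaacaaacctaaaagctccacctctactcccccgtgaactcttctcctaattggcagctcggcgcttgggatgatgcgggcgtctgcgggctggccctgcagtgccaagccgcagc
Neither window held any of these motifs. They differed in composition, with 1 CG dinucleotide and 38.4% G and C for Scn2b against 23 and 66% for Scn4b, where the median window of 32851 in the table had 6 CG dinucleotides.

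The sodium channels of peripheral tissue behaved in another way, since they differed most within groups. These genes were given on every array after their values were seen. Scn7a encodes Nax, a sodium-sensing channel found in non-myelinating Schwann cells and some glia and neurons. It was at 8.70 and 6.21 on the control arrays, 6.24 and 6.99 after MPTP, 8.17 and 6.39 with acupoint needling and 6.32 and 6.37 with hip needling. Control replicate 1, acupoint replicate 1 and MPTP replicate 2 were the highest arrays for Scn7a, in that order, and also for the mean of the Schwann cell and nerve markers (8.13, 8.09 and 7.56, against 6.49 to 7.09 on the other 5). Among those markers, the myelin gene Pmp2 was at 8.06, 7.07 and 6.40 on these 3 arrays and 3.73 to 4.94 on the others, while the Schwann lineage gene Cdh19 was lowest on the control arrays. No contrast of Scn7a passed, with -0.84 in MPTP minus control (SE 0.74, adjusted p = 0.487).

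Scn9a, Scn10a and Scn11a encode Nav1.7, Nav1.8 and Nav1.9, the channels of pain-sensing primary neurons, whose cell bodies lie in the dorsal root ganglia. Scn10a was at 5.96 and 4.78 on the control arrays, 4.26 and 4.49 after MPTP, 4.81 and 4.40 with acupoint needling and 4.19 and 4.62 with hip needling. Scn11a, below the intensity filter and untested, was at 5.32 and 4.08 in the controls, with 4.02 to 4.21 after MPTP with or without needling. Scn9a was at 6.44 and 5.50 on the control arrays, 5.74 and 5.58 after MPTP, 6.05 and 5.99 with acupoint needling and 5.72 and 5.61 with hip needling. All 3 were highest on control replicate 1, and on control replicate 2 they lay within or close to the range of the MPTP arrays.

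Scn10a fell in the mean of the 3 MPTP groups (log2 -0.91, SE 0.27, limma adjusted p = 0.0385), and this rested on control replicate 1, without which it was -0.32 (adjusted p = 0.39). The call also ended without MPTP replicate 1 (-0.87), MPTP replicate 2 (-0.94), acupoint replicate 2 (-0.84) or hip replicate 1 (-0.84), after quantile normalization (-0.71) or cyclic loess (-0.79), and with no intensity trend. Without control replicate 2 both Scn10a (-1.58, adjusted p = 0.0273) and Scn9a (-0.77, adjusted p = 0.0387) were called lower in MPTP minus control. The 6 sensory neuron markers tested had a mean of 5.73 on control replicate 1 and 5.18 to 5.38 on the other 7 arrays, and the sensory neuron actin regulator Avil was at 5.67 there against 4.28 to 4.93. Of the other 5, Trpv1 (5.26), Mrgprd (5.09) and P2rx3 (6.11) were also highest there, Mrgprd with nearly the same level on control replicate 2 (5.01), while Pou4f1 was highest on acupoint replicate 1 and Isl2 on MPTP replicate 1. Scn9a was next highest on the acupoint arrays, where the sensory marker mean was 5.38 and 5.21. The list and these channels thus shared mainly their high values on control replicate 1, and the part of sensory neurons or nerve in the Scn7a, Scn9a and Scn10a values was not tested.

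**Figure D4:**
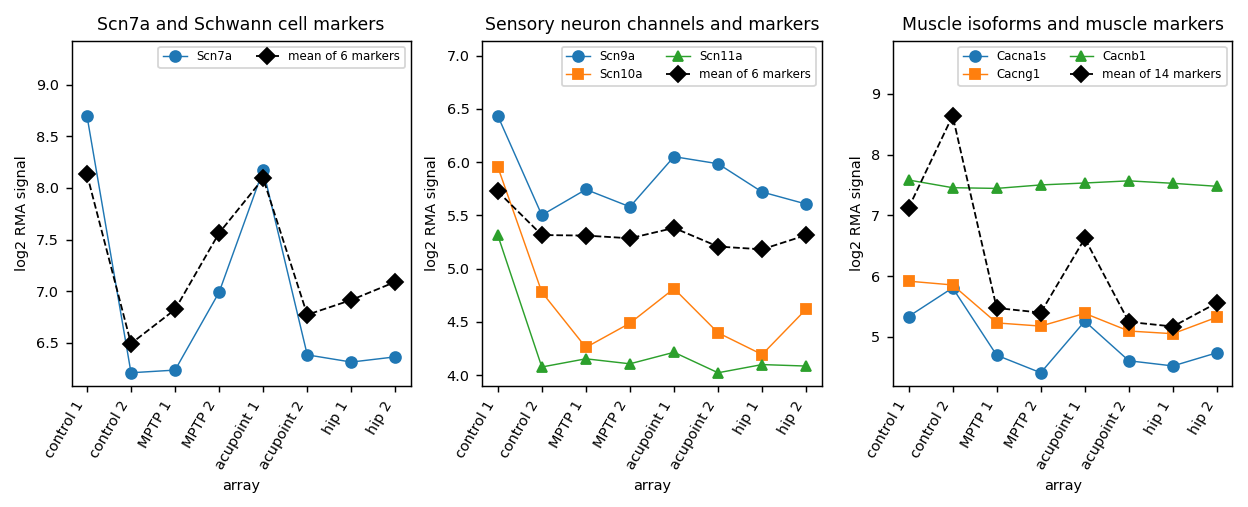
Log2 RMA signal on each of the 8 arrays (x axis) for Scn7a, for Scn9a, Scn10a and Scn11a, and for the muscle isoforms, with the mean of the marker genes of Schwann cells, primary sensory neurons and skeletal muscle as black diamonds. Lines join arrays only to guide the eye. Scn7a peaks on the arrays where the Schwann markers peak, and Cacna1s is high on both control arrays and on acupoint replicate 1.

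Among the alpha1 subunits of neuronal calcium channels, 1 of 9 passed, in 1 contrast. Cacna1a encodes the pore of P/Q-type channels, which drive transmitter release at most fast synapses including the neuromuscular junction. It was at 8.28 and 8.43 on the control arrays, 8.04 and 8.00 after MPTP, 8.33 and 7.95 with acupoint needling and 7.96 and 7.95 with hip needling. Acupoint replicate 1 lay between the control arrays and the other 5 MPTP arrays lay below both. Cacna1a was at -0.33 in MPTP minus control (SE 0.12, limma adjusted p = 0.097) and fell in the mean of the 3 MPTP groups (-0.31, SE 0.10, adjusted p = 0.0474).

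This call was marginal. It ended without control replicate 1 (-0.39), control replicate 2 (-0.24), MPTP replicate 1 (-0.32), MPTP replicate 2 (-0.31), hip replicate 1 (-0.32) or hip replicate 2 (-0.31), and when arrays were centred on their medians (-0.16, adjusted p = 0.241). With the replicate number as a block its adjusted p was 0.0631, and it also missed the threshold with no filter (0.0527) or no intensity trend (0.0742). Other settings added a call. In MPTP minus control Cacna1a passed without acupoint replicate 1 (-0.33, adjusted p = 0.0142), without acupoint replicate 2 (-0.33, adjusted p = 0.0140), with only the 2 groups compared (adjusted p = 0.0276) and with control replicate 1 and acupoint replicate 1 both left out (-0.41, adjusted p = 0.00502). In hip minus control it was at -0.40 (adjusted p = 0.0511), just outside the threshold, and passed after quantile normalization (adjusted p = 0.0353) and cyclic loess (adjusted p = 0.0355), among others. The other release channels were Cacna1b, the pore of N-type channels, at -0.18 in MPTP minus control (SE 0.10, adjusted p = 0.236), and Cacna1e, of R-type channels, at -0.02 (SE 0.11, adjusted p = 0.943).

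The L-type alpha1 subunits Cacna1c, Cacna1d and Cacna1f, which link depolarisation to gene expression and slow calcium entry, did not pass in any contrast. They were at -0.12, -0.14 and -0.06 in MPTP minus control. Cacna1d, with the most negative value, was at 6.53 and 6.89 in the controls, while the 6 MPTP arrays ran from 6.42 to 6.63, which overlapped. The T-type subunits, which open near the resting potential, did not pass either. Cacna1i was at 6.90 and 6.66 in the controls, while the 6 MPTP arrays ran from 6.93 to 7.36, all above both controls, with a difference of 0.27 (SE 0.15, adjusted p = 0.244). Cacna1g and Cacna1h were at 0.09 and -0.03, and Cacna1h ran from 6.41 to 6.60 on the MPTP arrays around control values of 6.54 and 6.46.

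The alpha2delta subunit Cacna2d1, which raises the number of channels at the membrane and of release sites, rose in every comparison with control. It was at 8.95 and 8.49 on the control arrays, 9.21 on both MPTP arrays, 9.27 and 9.37 with acupoint needling and 9.26 and 9.23 with hip needling. All 6 MPTP arrays were above both control arrays and lay closer together than the 2 controls. The difference was 0.49 in MPTP minus control (1.40-fold, SE 0.13, limma adjusted p = 0.0313), 0.60 in acupoint minus control (adjusted p = 0.0202), 0.52 in hip minus control (adjusted p = 0.0226) and 0.54 in the mean of the 3 (SE 0.11, adjusted p = 0.00638).

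Most of the spread of Cacna2d1 was between the control arrays. Without control replicate 2 the MPTP difference was 0.26 and that of the 3 groups 0.31 (adjusted p = 0.0526), and the MPTP call also ended without either MPTP array (0.49 each) or either hip array (0.49 each), after quantile normalization (0.39, adjusted p = 0.058) or cyclic loess (0.35, adjusted p = 0.0933), and with no intensity trend (adjusted p = 0.0654). Its dimmer probe set was at 0.24 in MPTP minus control and was not called. Cacna2d3 was at 9.01 and 9.23 in the controls, with 9.24 to 9.40 after MPTP with or without needling, with 0.22 (SE 0.09, adjusted p = 0.136). Cacna2d2, abundant in cerebellum, was at -0.01. Cacna2d4, best known from the retina, was at -0.04, with 5.51 and 5.45 in the controls, with 5.29 to 5.51 after MPTP with or without needling.

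The beta subunits carry alpha1 subunits to the membrane and tune their gating. Cacnb4, the form bound to P/Q-type channels in much of the brain, was at 9.79 and 9.77 in the controls, while the 6 MPTP arrays ran from 9.86 to 9.97. These did not overlap, but the difference of 0.09 was small (SE 0.07, adjusted p = 0.395). Cacnb2 was at 5.21 and 4.81 in the controls, with 4.75 to 5.30 after MPTP with or without needling, with -0.15 (SE 0.21, adjusted p = 0.682). Neither was called in any contrast.

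The Cacng family, leaving out the muscle form, split in direction. Cacng2, Cacng3, Cacng4 and Cacng8 encode type I TARPs, which carry AMPA receptors to synapses and slow their closing, and Cacng5 and Cacng7 encode type II TARPs with weaker or selective effects. Cacng2, or stargazin, was at 9.50 and 9.53 on the control arrays, 9.93 and 9.89 after MPTP, 9.81 and 9.89 with acupoint needling and 9.81 and 9.88 with hip needling. Cacng7 was at 9.43 and 9.45 on the control arrays, 9.08 on both MPTP arrays, 9.21 and 9.04 with acupoint needling and 9.08 and 9.01 with hip needling. The control and MPTP arrays did not overlap for either gene, and their differences had opposite signs.

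Cacng2 rose 1.32-fold in MPTP minus control (log2 0.40, SE 0.07, limma adjusted p = 0.00781), with the smallest adjusted p of the 34. In the mean of the 3 MPTP groups it was at 0.35 (SE 0.06, adjusted p = 0.00293) and stayed called without any single array. Its dimmer probe set was at 0.27 in MPTP minus control (adjusted p = 0.0548) and 0.15 over the 3 groups (adjusted p = 0.155), was not called, and on acupoint replicate 1 (8.29) lay below control replicate 1 (8.30). Among the single arrays left out, the MPTP call of the probe set used ended only without MPTP replicate 1 (0.37) or MPTP replicate 2 (0.42). Cacng7 fell 1.29-fold (log2 -0.36, SE 0.08, adjusted p = 0.0175, and -0.36 with adjusted p = 0.00508 over the 3 groups). Its MPTP call ended without control replicate 1 (-0.37), control replicate 2 (-0.36), MPTP replicate 1 (-0.36) or MPTP replicate 2 (-0.36) and with arrays centred on their medians (-0.20, adjusted p = 0.159), and the call over 3 groups ended without control replicate 2 (-0.35, adjusted p = 0.0524) and with arrays so centred (-0.21, adjusted p = 0.0737).

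The other 4 did not pass in MPTP minus control. Cacng8, which lies next to Cacng7, was at 6.91 and 6.92 in the controls, while the 6 MPTP arrays ran from 7.07 to 7.25, without overlap, with 0.28 (SE 0.10, adjusted p = 0.095). Cacng3 was at 0.38 (SE 0.18, adjusted p = 0.18), with 7.16 and 7.43 in the controls, with 7.35 to 7.89 after MPTP with or without needling, which overlapped. Cacng4 was at -0.20 (SE 0.11, adjusted p = 0.247) and Cacng5 at 0.24 (SE 0.10, adjusted p = 0.152). Cacng1, Cacng4 and Cacng5 are direct neighbours on chromosome 11, and Cacng7 and Cacng8 on chromosome 7. Cacng1 and Cacng4 had negative differences and Cacng5 a positive one, and Cacng7 and Cacng8 differed in sign. AMPA receptor subunits served by these proteins were called in the same contrast, with Gria3 at 0.56 (adjusted p = 0.00651) and Gria1 at 0.55 (adjusted p = 0.00706), while Gria4 (0.19, adjusted p = 0.108) and Gria2 (0.13, adjusted p = 0.408) did not pass.

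The windows of the oppositely called Cacng2 and Cacng7 and of Cacna2d1 and the muscle isoform Cacna1s are given in the same way. They lie at chr15:78119281-78119530 (minus strand), chr7:3332575-3332824 (plus), chr5:15934441-15934690 (plus) and chr1:136052561-136052810 (plus), and capitals again mark matches to the 5 motifs.
Cacng2: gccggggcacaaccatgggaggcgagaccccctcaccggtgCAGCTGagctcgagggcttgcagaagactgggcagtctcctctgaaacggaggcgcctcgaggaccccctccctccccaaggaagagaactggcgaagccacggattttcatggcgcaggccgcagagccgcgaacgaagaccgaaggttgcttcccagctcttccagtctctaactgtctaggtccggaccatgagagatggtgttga
Cacng7: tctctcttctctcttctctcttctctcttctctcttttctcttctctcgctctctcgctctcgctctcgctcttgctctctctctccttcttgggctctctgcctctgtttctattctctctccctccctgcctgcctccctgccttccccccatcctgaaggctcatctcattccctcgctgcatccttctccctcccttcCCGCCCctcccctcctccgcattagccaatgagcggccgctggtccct
Cacna2d1: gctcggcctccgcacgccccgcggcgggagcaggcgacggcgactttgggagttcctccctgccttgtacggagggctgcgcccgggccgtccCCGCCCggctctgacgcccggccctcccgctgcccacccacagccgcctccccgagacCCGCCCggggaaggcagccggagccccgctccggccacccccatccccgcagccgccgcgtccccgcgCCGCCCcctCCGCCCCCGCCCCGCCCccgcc
Cacna1s: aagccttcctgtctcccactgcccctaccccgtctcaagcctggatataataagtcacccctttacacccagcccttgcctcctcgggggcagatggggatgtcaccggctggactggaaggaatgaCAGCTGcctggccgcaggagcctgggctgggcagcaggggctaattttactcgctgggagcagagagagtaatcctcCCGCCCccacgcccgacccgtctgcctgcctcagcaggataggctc
Cacng2 held 1 E-box, Cacng7 held 1 GC box, Cacna2d1 held 6 GC boxes, and Cacna1s held 1 E-box and 1 GC box. In all, 27 of the 35 genes had 37 windows in the table, of which 14 (37.8%) held a GC box, 11 (29.7%) the E-box, 2 (5.41%) a TATA box and 0 the MEF2 pattern or the CRE. Over all 32851 windows the shares were 32.7%, 13%, 12.4%, 3.2% and 1.55%. Several windows belong to 1 gene, so they are not independent, and a match describes the letters only.

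The muscle isoforms were read apart. Cacna1s encodes the pore of the L-type channel of skeletal muscle, the voltage sensor for contraction, and Cacng1 its gamma subunit. Cacna1s was at 5.33 and 5.81 on the control arrays, 4.70 and 4.41 after MPTP, 5.26 and 4.60 with acupoint needling and 4.52 and 4.74 with hip needling. Cacng1 was at 5.92 and 5.85 on the control arrays, 5.23 and 5.18 after MPTP, 5.38 and 5.09 with acupoint needling and 5.05 and 5.32 with hip needling. The control arrays were highest for both, and acupoint replicate 1 came next.

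Cacna1s fell 2.03-fold in MPTP minus control (log2 -1.02, SE 0.24, limma adjusted p = 0.0211) and Cacng1 fell 1.61-fold (log2 -0.68, SE 0.15, adjusted p = 0.017). Both fell in hip minus control, Cacna1s by 0.94 (adjusted p = 0.0251) and Cacng1 by 0.70 (adjusted p = 0.014). In acupoint minus control only Cacng1 passed (-0.65, adjusted p = 0.0273), with Cacna1s at -0.64 (adjusted p = 0.119). The MPTP call of Cacna1s ended without control replicate 2 (-0.78), MPTP replicate 1 (-1.16) or MPTP replicate 2 (-0.87), and that of Cacng1 without control replicate 1 (-0.65), control replicate 2 (-0.71), MPTP replicate 1 (-0.71) or MPTP replicate 2 (-0.66). Over the 3 groups Cacng1 (-0.68, adjusted p = 0.00483) held without any single array and Cacna1s (-0.87, adjusted p = 0.0117) did not without control replicate 2 (-0.63).

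Cacnb1, the beta subunit of the muscle channel, which neurons also express, was at 7.58 and 7.46 in the controls, with 7.44 to 7.57 after MPTP with or without needling. Its difference was -0.05 (SE 0.09, adjusted p = 0.786) and turned to 0.11 with arrays centred on their medians. Of 10 tested genes of excitation-contraction coupling 5 fell, among them the store protein Casq1 (-1.46, adjusted p = 0.00534), Trdn (-0.87, adjusted p = 0.00759), the release channel Ryr1 (-1.03, adjusted p = 0.0088) and the calcium pump Atp2a1 (-3.51, adjusted p = 0.00927). Of 14 skeletal muscle markers 11 fell (median -2.39). Their mean was highest on control replicate 2, then control replicate 1, then acupoint replicate 1, which was also the order for Cacna1s. Cacng1 was instead slightly higher on control replicate 1 than on control replicate 2. Muscle markers were thus high on the control arrays, where both channel genes were high, and their part in these 2 results was not tested.

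**Figure D5:**
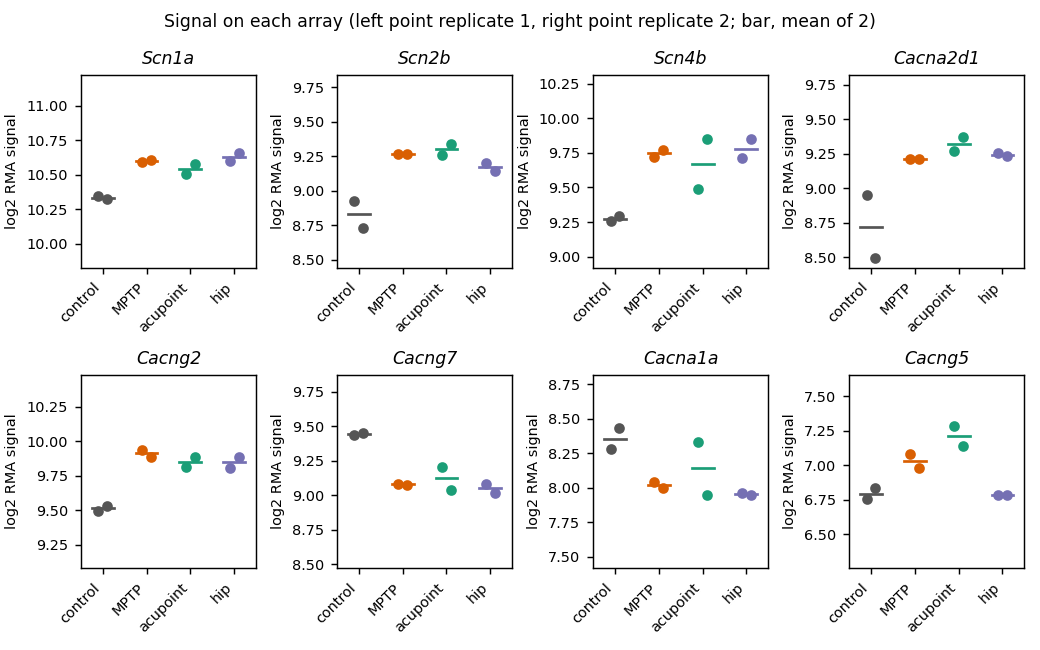
Log2 RMA signal (y axis, each panel spanning 1.4 log2 units) of 8 non-muscle channel genes on each array, by group, with replicate 1 left and replicate 2 right and the mean of 2 as a bar. Scn1a, Scn2b, Scn4b, Cacna2d1 and Cacng2 lie higher, and Cacng7 lower, on all 6 MPTP arrays than on both control arrays, while Cacng5 is at the control level with hip needling.

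Needling was compared with MPTP alone to ask which channel transcripts it moved. No member was called in acupoint minus MPTP, hip minus MPTP or acupoint minus hip, and 0% of all genes were. At an unadjusted p under 0.05 there were 1, 1 and 2 members in these contrasts in limma, and 201, 273 and 604 of all genes. The 7 non-muscle genes called against control in the MPTP group or over the 3 groups, other than Scn10a, changed by -0.08 to 0.12 in acupoint minus MPTP and by -0.10 to 0.04 in hip minus MPTP, each within 1 SE except Scn2b with hip needling (-0.10, SE 0.09). Their signals on the needled arrays thus stayed near those of the MPTP arrays, although 2 arrays a group leave room for differences of that size.

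Cacng5 had the smallest unadjusted p of the members in acupoint minus hip needling. It was at 6.75 and 6.84 on the control arrays, 7.09 and 6.98 after MPTP, 7.29 and 7.14 with acupoint needling and 6.78 on both hip arrays. The acupoint arrays were highest and the hip arrays lay between the controls. The difference between the needled groups was 0.43 (SE 0.10, unadjusted p = 0.00253, limma adjusted p = 0.936). It was 0.50 without acupoint replicate 2, which left the group to acupoint replicate 1, the array with high muscle and nerve markers. Against control, Cacng5 rose with acupoint needling (0.42, adjusted p = 0.0343) and was at -0.01 with hip needling (adjusted p = 0.955).

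Over the 34 members the median of acupoint minus MPTP was 0.09, against -0.01 over all genes, and it was 0.00090 without acupoint replicate 1. That array was the highest of the 8 for 12 of 34 members and for 6 of 9 non-muscle alpha1 subunits of calcium channels, where it was highest for 17.6% of all genes. Cacna1e was at 7.80 and 7.79 on the control arrays, 7.85 and 7.70 after MPTP, 8.14 and 7.92 with acupoint needling and 7.87 and 7.74 with hip needling, and its acupoint minus MPTP difference of 0.25 had an unadjusted p of 0.0409 (adjusted p = 1.00). The muscle and nerve markers were also high on acupoint replicate 1, and whether they bear on its channel signals was not tested. The needled groups set against control gave 5 members higher and 2 lower with acupoint needling (9.55% and 2.17% of all genes) and 5 higher and 3 lower with hip needling (15.4% and 3.87%).

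Partner genes of the channels were read from lists. Of 18 sodium channel partners, 4 rose (22.2%, where 13.7% of all genes did) and 0 fell in MPTP minus control (median 0.20). These were Cntn1, an axonal adhesion protein that binds beta subunits (0.43, adjusted p = 0.00615), and Fgf12, Fgf13 and Fgf14 (0.43, 0.44 and 0.36), which bind the tails of alpha subunits and shift their inactivation. Of 17 active zone genes that work with presynaptic calcium channels, 4 rose (23.5%) and 0 fell (median 0.25), namely Syt2 (0.54, adjusted p = 0.00304), Snap25 (0.44), Vamp1 (0.29) and Syt1 (0.37). Snap25 and Syt1 were also among the pan-neuronal markers above, so the 2 lists are not separate.

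Of 13 AMPA receptor subunits and other auxiliary genes, 4 rose (30.8%) and 2 fell (15.4%, where 3.1% of all genes did; median 0.19). Beside Gria3 and Gria1 those were Olfm1 (0.35) and the scaffold gene Dlg4 (0.28), and the auxiliary genes Shisa7 (-0.43, adjusted p = 0.0396) and Cnih2 (-0.39, adjusted p = 0.0427), named after their values were seen, fell. Of 19 genes of calcium sensing, stores and clearance, 6 rose (31.6%) and 1 fell (5.26%; median 0.22). The calcium buffer Calb1 (0.72, adjusted p = 0.00639), the calmodulin gene Calm3 (0.41) and the kinase Camk2a (0.52) were among those that rose, and the release channel Ryr3 (-0.64, adjusted p = 0.0108) fell. In these 4 lists the medians were above the 0.06 of all genes, while that of the channel genes was -0.02. Apart from the muscle isoforms, the median was 0.20 over 10 sodium channel genes and -0.02 over 21 calcium channel genes. The sodium channel value joined unlike subunits. Their median was -0.16 over 7 alpha subunits, of which 4 were negative, and 0.44 over 3 beta subunits. Without control replicate 1 the channel median was 0.07, beside 0.07 over all genes, and with arrays centred on their medians 0.13, beside 0.22. In the mean of the 3 MPTP groups 9, 7, 6 and 8 genes of the 4 lists rose (50%, 41.2%, 46.2% and 42.1%, where 19.9% of all genes did), and 0, 0, 2 and 1 fell (5.35% of all genes).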

How the data were processed

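Probe sets were measured on 8 whole-transcript arrays from 300 ng of total RNA, per the labels' protocols. The authors deposited log2 values made with RMA in Affymetrix Expression Console, per the submitters' processing notes, 1 per probe set and array (35557 probe sets). Versions are not given in the sources used here, and that the logs are to base 2 follows from how far the values reach. RMA values keep no detection call, and dim probe sets understate differences.

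Gene names came from the platform annotation: 21789 probe sets had 1 symbol, 1621 more than 1 and 12147 none. Those with more than 1 were not used, among them 3 shared by Scn1a, Scn2a, Scn3a or Scn9a. Probe sets with 1 symbol and a mean over 8 arrays above the 30th percentile (4.30) were kept, the brightest per gene, leaving 16026 genes. All 35 Entrez identifiers of the channel genes were found in RefSeq (GRCm38.p6), whose promoter table gave the sequences. limma 3.58.1 in R 4.3.3 fitted group means with an intensity trend, 4 residual and 5.34 prior degrees of freedom, and 7 two-sided contrasts, and was tested on simulated data. Batches were not tested, as no scan dates were used.

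Every member was named. Array values were given for those called in any contrast, the muscle isoforms and the extremes of each subfamily in MPTP minus control, and up to 4 called genes by smallest p were named per partner list, with 2 more in the AMPA list. The members and lists were chosen with earlier results of these data known. The alternatives were 3 scalings, 2 filters, no trend, the 2 groups alone, averaged probe sets, a replicate block and each array left out. Python 3.11.15 with matplotlib 3.10.9 made the plots.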

Additional observations from a re-analysis of the deposited data

How the results depend on the processing

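The number of arrays limits all calls here, and leaving out 1 array of a group of 2 assumes that the lone array varies like the others. Counts of channel genes called, higher and lower, were 5 and 3 for MPTP, 5 and 2 for acupoint needling, 5 and 3 for hip needling and 5 and 5 for the mean of the 3 MPTP groups against control, with 6 in the F-test. After a further quantile normalization they were 3 higher for MPTP (beside 12.8% of all genes) and 2 higher for hip needling (beside 14.1%). The F-test then called 3. After cyclic loess they were 2 higher for MPTP (beside 8.35% of all genes) and 2 for acupoint needling (beside 5.76%). Hip needling then had 1 higher (beside 9.83%), and the F-test called 2. With arrays centred on their medians they were 9 higher for MPTP, beside 25.1% of all genes. Acupoint needling then had 9 higher (beside 16.9%) and 1 lower (beside 1.04%). The mean had 13 higher (beside 33.8%) and 3 lower (beside 2.19%). A filter at the 50th percentile, which removes dim genes, gave 1 lower for MPTP (beside 3.9% of all genes). It gave 1 lower for acupoint needling (beside 2.8%) and 2 lower for the mean (beside 6.35%). Without an intensity trend they were 2 higher for MPTP (beside 8.82% of all genes). For acupoint needling they were 2 higher (beside 4.85%) and 1 lower (beside 1.54%). They were also 3 higher for hip needling (beside 10.8%), 3 lower for the mean (beside 5.02%) and 0 in the F-test. With only the 2 groups compared, 0 were higher and 0 lower for acupoint needling, where 0.568% of all genes were higher and 0.275% lower. With control replicate 1 and acupoint replicate 1 both left out, added after seeing the data, they were 8 higher and 5 lower for MPTP, 6 lower for acupoint needling, 8 and 5 for hip needling, 8 higher for the mean and 11 in the F-test. In that last setting the share of all genes called higher also rose in each of these comparisons with control. Its counts are thus no sign of a shift particular to the channel genes. The causes of these shifts were not tested.

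Leaving out each array in turn gave 0 to 6 higher and 0 to 4 lower for MPTP, 0 to 6 and 0 to 4 for acupoint needling, 0 to 5 and 0 to 4 for hip needling, 2 to 8 and 3 to 5 for the mean, 0 to 12 in the F-test, and 0 to 1 higher for acupoint minus hip needling. As described above for MPTP minus control, the shares of all genes called also moved as arrays were left out. Such shifts were thus not limited to the channel genes. The labels share replicate numbers 1 and 2 across groups but do not say that they pair samples. Deviations of same-numbered arrays correlated at -0.33 to 0.17 across genes, over 0.1 in 2 of 6 group pairs. With the replicate block, 1 channel gene was lower for acupoint needling against control (beside 1.62% of all genes) and 3 passed the F-test. Cacnb1 changed sign with arrays centred on their medians (0.11 for MPTP, 0.14 for the mean), with control replicate 1 and acupoint replicate 1 both left out (0.017 and 0.059), and, as each array was left out, ran from -0.11 to 0.017 for MPTP and from -0.074 to 0.053 for the mean, positive without control replicate 1. Of 23 tested members not called in any contrast as reported, some of which passed under an alternative, 13 changed sign in MPTP minus control under at least 1 of 17 alternatives.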
